A study of Mus musculus with 4 samples.

Results

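Tumour macrophages secrete factors that build matrix and feed vessels and epithelium. This report describes 9 genes of that kind, Spp1, Thbs1, Fn1, Vegfa, Areg, Hbegf, Igf1, Pdgfb and Inhba, out of 32285 genes counted in CD45+ cells of mouse melanomas. The rule names them one by one and uses no measured value, but it was set with earlier results of these data known. All 9 were detected in the macrophages and in the monocytes of every sample.

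The data are single-cell RNA-seq counts from 33368 cells, which the authors sorted into 17 cell types. All tumours grew from YUMM1.7, a melanoma line driven by mutant Braf, carrying ovalbumin as a model antigen, in Rag2-/- mice, hosts without T and B cells of their own that keep NK cells. All mice received activated OT-1 CD8+ T cells, which recognise ovalbumin, on day 7, and tumours were taken on day 10, 72 h later. Each of 4 groups was 1 sample. NTT tumours came from the line Y1.7_NTT_3A6, which had seen no targeted therapy. RTT tumours came from Y1.7_RTT_2B12, a line that had become resistant to BRAF inhibition in culture. RTT_ROSA26 tumours came from that resistant background with a control guide, and RTT_PTGS12KO tumours from the resistant background with Ptgs1 and Ptgs2, the genes of both cyclooxygenases that start prostaglandin synthesis, knocked out in the cancer cells. The last sample is also called the knockout here, although its immune cells keep both genes. NTT and RTT are thus 1 line each. The labels name 1 tumour per condition while the study's legends speak of pooled tumours. The sort was for CD45+ cells and no cluster was named as cancer cells, so the knockout was not checked in these counts.

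Osteopontin (Spp1), thrombospondin-1 (Thbs1) and fibronectin (Fn1) are secreted proteins of the extracellular matrix that bind integrins, and Thbs1 also restrains vessel growth through CD36 and CD47. Vegfa drives endothelial sprouting and is raised by low oxygen, and Pdgfb recruits pericytes to new vessels. Amphiregulin (Areg) and HB-EGF (Hbegf) are membrane-anchored ligands of the EGF receptor that sheddases such as ADAM17 release. Igf1 is a growth factor made by many resident macrophages, and Inhba encodes the subunit of activin A, a ligand of the TGF-beta family that follistatin neutralises. Monocytes that enter a tumour can mature into macrophages, and these genes are often followed along that path.

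Levels are given as CPM, the unique molecular identifiers (UMIs) of a gene per 1000000 UMIs of the same cells, summed over the cells of a sample. A ratio is the CPM of the first sample over that of the second, with its 95% counting interval in parentheses. "Past 2-fold" means a ratio of at least 2 or at most 0.5 whose interval excludes 1, with at least 10 UMIs over both samples. Ratios at equal cell type makeup or averaged over each cell's own CPM have no interval. There the size of the ratio alone decides, at the same minimum of UMIs. With a constant added to CPM, the interval was that of the ratio without it. With 1 sample per group there was no replicate check and no p-value, and the intervals cover counting error only. Macrophages are the authors' clusters TAM_C1q, TAM_Spp1, TAM_cycling, TAM_H2Ab1 and Ctsk_Macro, and monocytes are Monocyte_1, Infl_Mono and Monocyte_3. A further cluster named Macro was kept apart. Series of 4 values without names run from NTT over RTT and RTT_ROSA26 to RTT_PTGS12KO.

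The samples held 6836 to 10296 cells with a median of 7293 UMIs per cell in NTT and 12219 to 13280 in the others. NTT held 308 macrophages and 6619 monocytes, RTT 6734 and 522, RTT_ROSA26 5993 and 144, and RTT_PTGS12KO 5207 and 4015. The 4 samples were pooled and loaded 3 times on a chip, so free RNA was common to them within a load, and 98 of 33270 barcode sequences occurred in more than 1 load. Over 93 values with at least 100 UMIs, the highest load exceeded the lowest by a median of 1.14-fold and by 3.19-fold at most. The cell mixture behind the word macrophage also differed. Of the 308 NTT macrophages, 192 were TAM_H2Ab1, 79 TAM_cycling, 20 TAM_Spp1 and 12 TAM_C1q, whereas RTT held 3412 TAM_C1q and 2057 TAM_Spp1 cells. The summed CPM of 8 macrophage markers in the macrophages was 17190 in NTT against 33930 in RTT, then 26670 in RTT_ROSA26 and 16410 in the knockout. The summed CPM of 6 monocyte markers in the same cells was 4347, 450, 354 and 1484, so these markers were higher in NTT and RTT_PTGS12KO macrophages. In the monocytes the macrophage list stood at 5243, 15130, 9261 and 6285 CPM and the monocyte list at 10960, 5116, 6662 and 8060. The part of these marker differences in the results that follow was not tested. Values at equal makeup give each cluster the same weight in both samples and leave out clusters with under 20 cells in either. For NTT against RTT in macrophages that leaves out TAM_C1q and Ctsk_Macro. Such values do not address marker differences inside a cluster. TAM_cycling held 5363 CPM of the monocyte list in NTT against 461 in RTT, and 1862 in the knockout against 250 in RTT_ROSA26. None of the listed macrophage markers was among the 10 leading genes of TAM_H2Ab1, TAM_Spp1 or Macro. The study lists Fn1, Thbs1, Spp1 and Vegfa among the markers of TAM_Spp1, so their levels there are partly how the cluster got its name.

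Among the 9 genes, Areg, Igf1 and Inhba were past 2-fold in macrophages between RTT_PTGS12KO and its control, beside 4.01% of all genes higher and 4.12% lower, and their promoters are shown for that reason. The cyclooxygenase product prostaglandin E2 acts partly on receptors that raise cyclic AMP, whose classical DNA element is TGACGTCA. Each run below is the 250 bases before a RefSeq transcript start (GRCm38.p6, plus strand, 5′ to 3′), with TGACGTCA and the TATA box TATAAA, searched on both strands, in capitals.
Areg, chr5:91139349-91139598: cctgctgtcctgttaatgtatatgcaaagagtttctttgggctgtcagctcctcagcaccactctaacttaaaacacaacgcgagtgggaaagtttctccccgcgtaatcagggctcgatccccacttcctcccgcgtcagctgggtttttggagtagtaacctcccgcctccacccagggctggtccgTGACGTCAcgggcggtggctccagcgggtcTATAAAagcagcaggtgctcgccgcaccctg
Inhba, chr13:16011601-16011850: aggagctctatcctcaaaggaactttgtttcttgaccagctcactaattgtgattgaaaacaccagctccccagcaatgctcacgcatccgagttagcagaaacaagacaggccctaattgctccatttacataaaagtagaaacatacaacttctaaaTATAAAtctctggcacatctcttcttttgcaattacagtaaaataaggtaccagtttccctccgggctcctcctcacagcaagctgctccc
Igf1, chr10:87860861-87861110: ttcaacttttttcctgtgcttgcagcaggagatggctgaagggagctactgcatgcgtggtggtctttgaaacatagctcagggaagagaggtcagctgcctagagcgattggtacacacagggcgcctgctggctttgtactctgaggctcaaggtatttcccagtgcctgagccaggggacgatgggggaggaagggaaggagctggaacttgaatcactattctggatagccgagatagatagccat
The Areg window held 1 TGACGTCA beginning 61 bases before the start and 1 TATAAA beginning 31 bases before it. The Inhba window held 1 TATAAA, 91 bases before the start, and the Igf1 window held neither run of letters. TGACGTCA occurred in 508 of 32851 windows of this length (1.55%) and TATAAA in 4063 (12.4%). A match describes letters only, and a window without one says nothing about the factor. RefSeq windows were matched for 5 of the 9 genes.

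**Figure D1:**
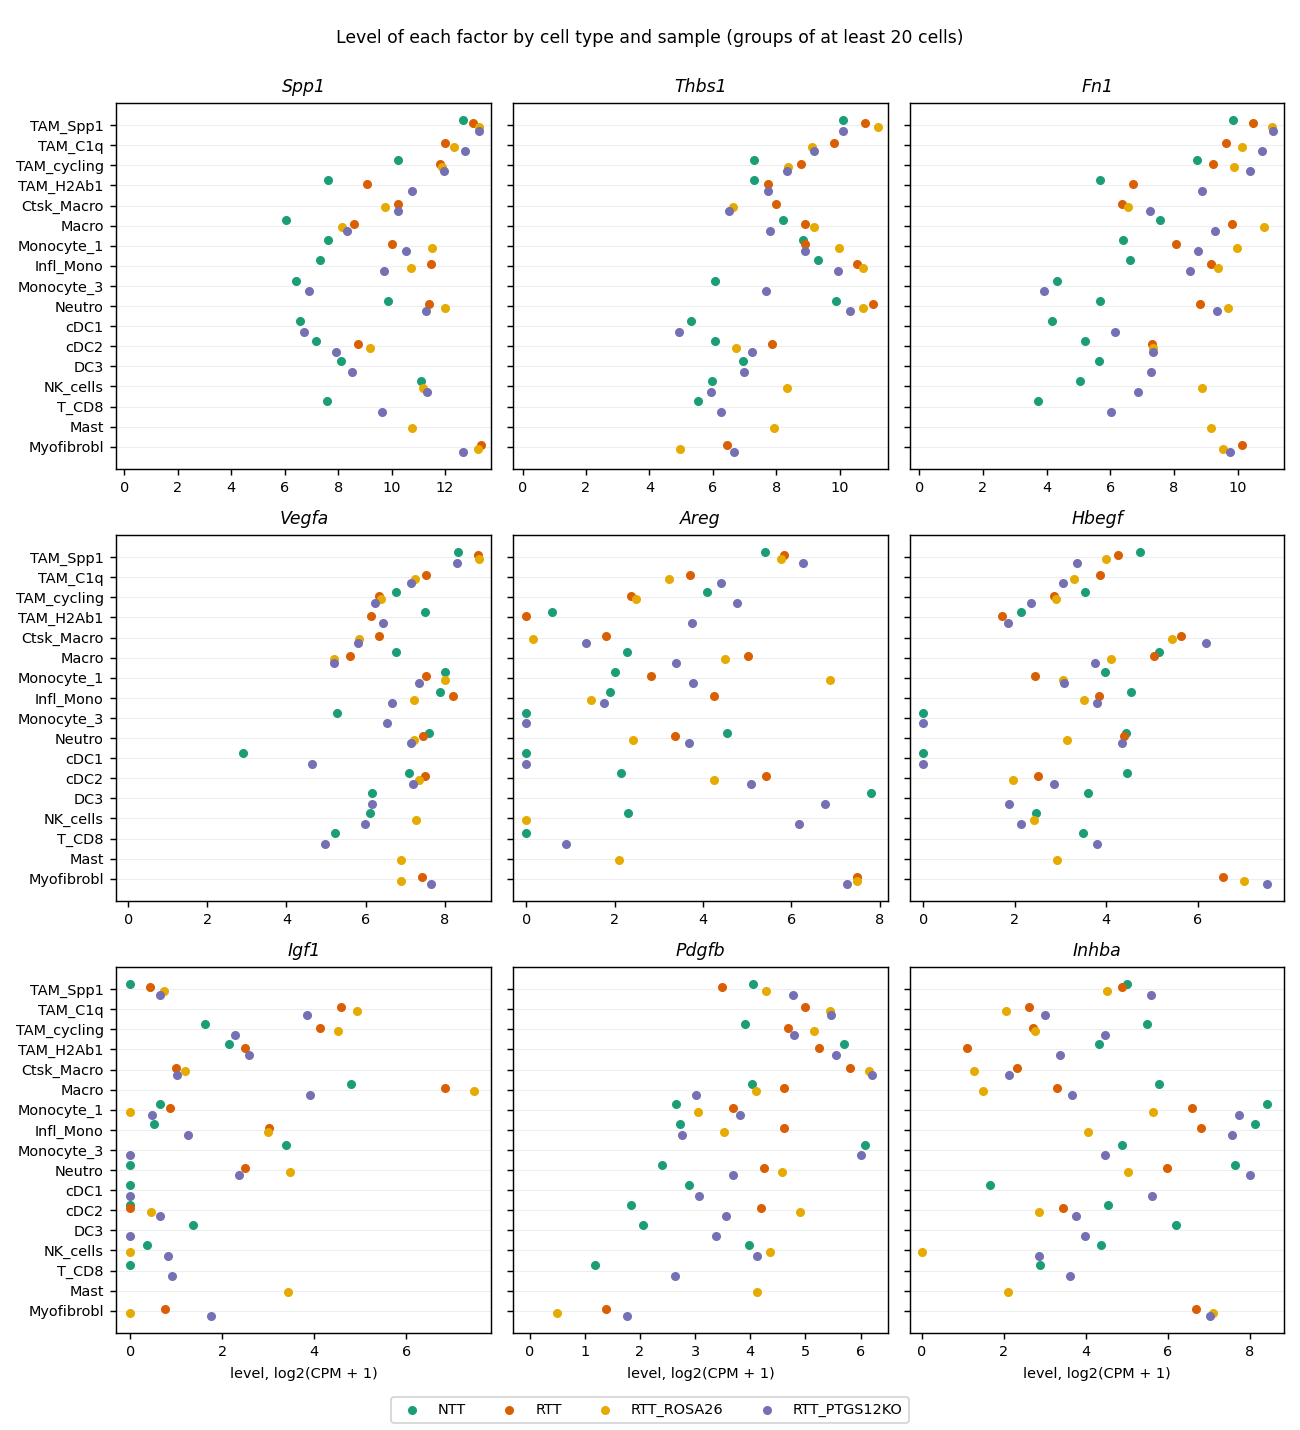
Level of each of the 9 factors (log2(CPM + 1) of summed UMIs, horizontal axis) in each cell type with at least 20 cells (vertical axis), 1 point per sample, coloured by sample. Spp1 stood at 8444 CPM in TAM_Spp1 cells of RTT against 94.4 CPM in cDC1s of NTT, Inhba at 343 CPM in Monocyte_1 cells of NTT, and Igf1 at 177 CPM in the Macro cluster of RTT_ROSA26.

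Spp1 (GRCm38 chromosome 5, 104435118 to 104441050, plus strand) encodes osteopontin, a ligand of CD44 and of integrins that marks a widely described state of tumour macrophages. Its level in macrophages was 1021 CPM in NTT and 4842 in RTT, and 4838 in RTT_ROSA26 against 5510 in RTT_PTGS12KO. The 3 resistant tumours lay close to each other and NTT stood apart, at 4.74-fold under RTT. In monocytes Spp1 was at 187 CPM in NTT against 1501 in RTT, then 2157 in RTT_ROSA26 and 1385 in the knockout, which put NTT 8.04-fold under RTT.

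Levels also differed between the clusters, and the tumours held them in different numbers. Given the same cluster weights in NTT and RTT, the macrophage difference shrank to 1.55-fold and was no longer past 2-fold. Clusters with under 20 cells in either sample were left out there, among them TAM_C1q with 12 NTT and 3412 RTT cells. The TAM_Spp1 part of that value rests on 20 NTT cells, in which 1 cell held 408 of the 1247 Spp1 UMIs. Within TAM_Spp1 the level was 6431 CPM in the 20 NTT cells and 8444 in RTT, a ratio of 0.762. Among the 5 monocyte and macrophage types that could be compared, NTT was past 2-fold lower in 4, with ratios from 0.0560 to 0.762. TAM_cycling cells, for example, held 1208 CPM in NTT and 3596 in RTT, and 3767 in RTT_ROSA26 against 4023 in RTT_PTGS12KO.

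After every cell was thinned to 3000 UMIs, at least 1 Spp1 UMI was found in 35.6% of NTT macrophages, 85.8% of RTT, 86.2% of RTT_ROSA26 and 87.6% of RTT_PTGS12KO (63.0, 95.9, 95.3 and 97.0% before thinning). For monocytes the thinned shares were 26.9, 51.8, 51.5 and 46.4% in the same order. cDC1s, dendritic cells that should lack Spp1, gave 28.1% in NTT and 21.6% in RTT_PTGS12KO at median depths of 12830 and 12860 UMIs, against 7113 and 9102 in the monocytes. The NTT interval for cDC1s, 13.8 to 46.8%, included the monocyte share, so monocyte Spp1 could not be told from background there by this measure, while its CPM was 187 against 94.4 in cDC1s. The RTT_PTGS12KO interval, 9.83 to 38.2%, lay below the monocyte share. Any background in the NTT level makes the 8.04-fold ratio to RTT uncertain.

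In NTT the largest part of the Spp1 UMIs lay in NK cells, although TAM_Spp1 cells had the higher level. NK and T cells together held 49.9% of all Spp1 UMIs of NTT with 12.6% of its UMIs, whereas macrophages held 81.7, 92.7 and 85.3% in RTT, RTT_ROSA26 and RTT_PTGS12KO. NK cells stood at 2162 CPM in NTT, with 15461 of its 31551 Spp1 UMIs, and at 2547 in RTT_PTGS12KO, T cells of NTT at 188 CPM, and 68.9% of the thinned NTT NK cells held a Spp1 UMI. The NK cells had 66.9 Spp1 UMIs per Fn1 UMI in NTT and 22.1 in RTT_PTGS12KO, against 3.72 to 5.66 in the macrophages of the 4 samples. T cells had 15.5 in NTT and 12.3 in RTT_PTGS12KO, so the higher ratio was not particular to NK cells. The leading genes of the NK cells were granzymes, Prf1 and Klre1, genes of cytotoxic granules and NK receptors. In RTT_ROSA26, with 26 NK cells, the ratio was 4.89. The CD45+ gate also let through a cluster named Myofibrobl with a high Spp1 level, 10500 CPM in RTT, 9491 in RTT_ROSA26 and 6477 in RTT_PTGS12KO.

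Fn1 (chromosome 1, 71585520 to 71653200, minus strand) encodes fibronectin, on which integrin-bearing cells spread. In macrophages it stood at 272 CPM in NTT against 855 in RTT, then 1094 in RTT_ROSA26 and 1483 in the knockout, with a range over the loads of 186 to 375 in NTT. NTT was 3.14-fold under RTT and RTT_PTGS12KO was 1.36-fold over its control, the latter not past 2-fold. Monocytes held 86.9 CPM in NTT and 343 in RTT, and 791 in RTT_ROSA26 against 422 in RTT_PTGS12KO, 3.95-fold lower in NTT than in RTT. The knockout ratio in monocytes, 0.534, passed 2-fold without chip load 3 (0.490), at equal makeup (0.466) and with each cell's own CPM averaged (0.463). The macrophage difference fell to a ratio of 0.648 at equal makeup. Single types gave NTT ratios of 0.172 to 0.704, past 2-fold in 3 of 5. Thinned shares of macrophages with a Fn1 UMI were 16.7, 69.5, 76.3 and 80.2%, and cDC1s gave 6.25% in NTT and 10.8% in RTT_PTGS12KO.

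Thbs1 (chromosome 2, 118111876 to 118127133, plus strand) encodes thrombospondin-1, an inhibitor of vessel growth that can also activate latent TGF-beta. Macrophages held 248 CPM in NTT against 973 in RTT, then 669 in RTT_ROSA26 and 507 in the knockout. RTT stood highest, NTT was 3.92-fold under it, and RTT_PTGS12KO was at a ratio of 0.758 to its control. Monocytes held 498 CPM in NTT and 746 in RTT, and 1413 in RTT_ROSA26 against 536 in RTT_PTGS12KO, where the step from control to knockout was 2.64-fold lower and that from RTT to NTT a ratio of 0.667. At equal makeup both of the past-2-fold differences were lost, at ratios of 0.590 in macrophages and 0.531 in monocytes. Neutrophils carried it as well, at 933 CPM in NTT against 2099 in RTT, then 1705 in RTT_ROSA26 and 1280 in the knockout. Infl_Mono, which was led by Chil3 and interferon-stimulated genes, held 631, 1503, 1694 and 984 CPM in the same order.

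Vegfa (chromosome 17, 46016993 to 46032369, minus strand), the endothelial growth factor, stayed inside 2-fold in all cells, macrophages and monocytes. In macrophages it stood at 157 CPM in NTT and 222 in RTT, and 157 in RTT_ROSA26 against 134 in RTT_PTGS12KO, and in monocytes at 251, 212, 193 and 155 CPM. The ratio of NTT to RTT was 0.995 in all cells, 0.707 in macrophages and 1.19 in monocytes. Inside single monocyte and macrophage types the ratio of RTT_PTGS12KO to RTT_ROSA26 was under 1 in 6 of 6, from 0.631 to 0.972, and past 2-fold in 0. NTT over RTT gave 0.696 to 2.61 in 5 such types and was past 2-fold in TAM_H2Ab1, at 181 CPM in NTT and 69.4 in RTT. The level in TAM_Spp1 was 320 CPM in NTT against 460 in RTT, then 469 in RTT_ROSA26 and 317 in the knockout, while cDC1s held 6.44 CPM in NTT and 24.1 in RTT_PTGS12KO. After thinning, 33.3, 34.8, 30.5 and 26.5% of macrophages had a Vegfa UMI, and 0 of 32 cDC1s in NTT, where the exact interval reaches 10.9%.

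Areg (chromosome 5, 91139599 to 91148432, plus strand), whose promoter with both runs of capitals is shown above, encodes amphiregulin, a ligand tied to tissue repair. Macrophages held 8.37 CPM in NTT and 20.2 in RTT, and 12.4 in RTT_ROSA26 against 31.4 in RTT_PTGS12KO. The knockout value was 2.53-fold over its control (2.36 to 2.71), and NTT was 2.42-fold under RTT. Of the 34 UMIs behind the NTT level, 23 lay in 1 cell, and without it the level was 2.72 CPM. With chip load 2 left out the NTT ratio was 0.585, inside 2-fold. In the knockout the UMIs were spread over 310 cells and the level without the top cell was 29.6 CPM.

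The difference between knockout and control differed by cluster. In TAM_cycling Areg stood at 26.2 CPM in RTT_PTGS12KO and 4.62 in RTT_ROSA26, a ratio of 5.66 (4.86 to 6.62). In TAM_C1q the ratio was 2.40, and in TAM_Spp1 it was 1.41. The macrophage ratio was 1.94 at equal makeup and 1.75 with each cell's own CPM averaged, no longer past 2-fold. Monocytes went the other way, with 2.93 CPM in NTT against 9.18 in RTT, then 48.9 in RTT_ROSA26 and 11.4 in the knockout, a knockout level 4.28-fold under its control. That control value rested on 1 cell with 42 of its 49 UMIs, and without it RTT_ROSA26 monocytes held 7.09 CPM, under the knockout. Outside the macrophages Areg was at 221 CPM in DC3 cells of NTT and 107 in those of RTT_PTGS12KO. In NTT 77 of the 140 DC3 UMIs lay in 1 cell, and without it the level was 101 CPM. Myofibrobl cells held 180 CPM in RTT, 179 in RTT_ROSA26 and 153 in RTT_PTGS12KO.

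Hbegf encodes HB-EGF, the other EGF receptor ligand among the 9. Macrophages held 16.2 CPM in NTT and 15.4 in RTT, and 11.5 in RTT_ROSA26 against 8.70 in RTT_PTGS12KO, and no pair compared was past 2-fold there. In NTT 30 of the 66 UMIs lay in 1 cell, and without the top cell of each sample NTT held 8.93 CPM and RTT 15.1. Monocytes held 16.4 CPM in NTT against 6.73 in RTT, then 8.98 in RTT_ROSA26 and 8.11 in the knockout, with NTT 2.44-fold over RTT (1.73 to 3.57). That ratio was 1.97 with chip load 2 left out. The osteoclast-like Ctsk_Macro cluster held 49.0 CPM in RTT, 42.4 in RTT_ROSA26 and 71.8 in RTT_PTGS12KO, and Myofibrobl cells held 93.6, 129 and 183 CPM.

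Igf1 (chromosome 10, 87858265 to 87937042, plus strand) encodes insulin-like growth factor 1. The window printed above begins inside this annotated span, since the RefSeq start used differs from the outermost one. Macrophages held 3.45 CPM in NTT and 14.9 in RTT, and 19.9 in RTT_ROSA26 against 5.68 in RTT_PTGS12KO. The resistant tumours with both cyclooxygenases were high and the other samples low. The knockout was 3.50-fold under its control (ratio 0.286, 0.259 to 0.316) and NTT was 4.32-fold under RTT (ratio 0.231, 0.126 to 0.390), with only 14 UMIs in NTT. Both remained past 2-fold at equal makeup, at ratios of 0.340 and 0.277, for which no interval was computed. The NTT value leaves out TAM_C1q, which held 1138 of the 1455 Igf1 UMIs of RTT macrophages. It rests on 7 TAM_H2Ab1 and 3 TAM_cycling UMIs in NTT. With 10 added to each CPM, both calls were lost.

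Inside clusters the knockout stood at 3.81 CPM in TAM_cycling against 22.0 in the control, a ratio of 0.173 (0.145 to 0.206). In TAM_C1q it stood at 13.3 against 29.5 CPM, a ratio of 0.450 (0.395 to 0.511). The Macro cluster, which was not among the macrophages, held the highest Igf1 levels among the cell types with at least 20 cells, 27.0 CPM in NTT against 114 in RTT, then 177 in RTT_ROSA26 and 14.1 in the knockout, with 7, 117, 196 and 18 UMIs. TAM_Spp1 was nearly without it, at 0 to 0.656 CPM. Over all 6 single types Igf1 was past 2-fold lower in the knockout in 3. Monocytes held 0.543 CPM in NTT and 2.45 in RTT, a ratio of 0.222, and 0.504 in the knockout against 3.99 in its control, a ratio of 0.126, on 4 to 28 UMIs a sample. The call on the knockout ended without chip load 1 (ratio 0.297) and without each top cell (0.227), where the interval reached 1. Thinned shares of macrophages with an Igf1 UMI were 0.654, 3.52, 4.48 and 1.42% in NTT, RTT, RTT_ROSA26 and RTT_PTGS12KO.

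Pdgfb (chromosome 15, 79995874 to 80014977, minus strand) encodes the B chain of platelet-derived growth factor. Macrophages held 34.9 CPM in NTT and 26.3 in RTT, and 38.3 in RTT_ROSA26 against 34.3 in RTT_PTGS12KO, and none of the ratios there was past 2-fold. In monocytes it stood at 5.51, 14.9, 8.98 and 12.4 CPM, 2.70-fold lower in NTT than in RTT, with 9 UMIs in RTT_ROSA26. Ctsk_Macro held 54.7 CPM in RTT, 70.3 in RTT_ROSA26 and 72.9 in RTT_PTGS12KO, and Monocyte_3 held 66.5 in NTT and 63.3 in RTT_PTGS12KO. In all cells NTT was 2.96-fold under RTT, and at equal makeup the ratio was 0.645.

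**Figure D2:**
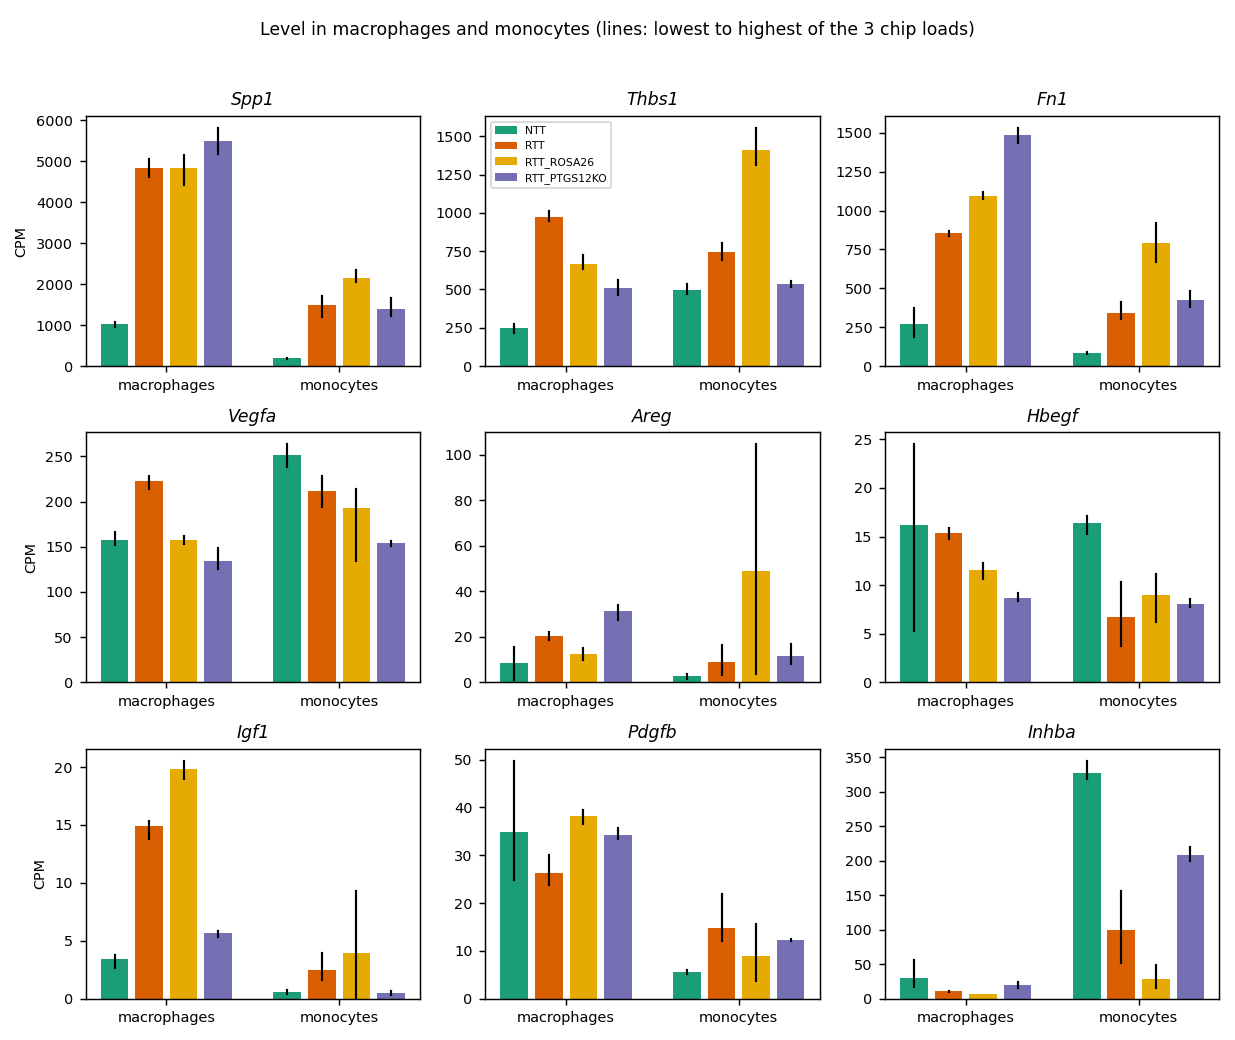
Level (CPM, bars from 0) of the 9 factors in macrophages and in monocytes of the 4 samples, 1 sample per group, with black lines from the lowest to the highest of the 3 chip loads, a technical spread. Inhba in monocytes is at 327 CPM in NTT and 208 in RTT_PTGS12KO against 100.1 in RTT and 28.9 in RTT_ROSA26.

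Inhba (chromosome 13, 16011851 to 16031621, plus strand), the activin A gene, ran opposite to most of the others. Monocytes held 327 CPM in NTT against 100.1 in RTT, then 28.9 in RTT_ROSA26 and 208 in the knockout. The loads ranged from 319 to 345 CPM in NTT and from 199 to 220 in the knockout, against 52.5 to 156 in RTT and 15.5 to 48.3 in RTT_ROSA26, which is a technical spread of the same cells and not one between tumours. NTT was 3.27-fold over RTT (2.99 to 3.59) and the knockout 7.19-fold over its control (5.0 to 10.7), but RTT_ROSA26 was itself 3.46-fold under RTT, on 29 UMIs in 144 cells. Against RTT, which shares the cyclooxygenases with RTT_ROSA26, the knockout level of 208 CPM stood over 100.1 CPM.

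Macrophages held less, 29.8 CPM in NTT and 10.6 in RTT, and 6.75 in RTT_ROSA26 against 20.4 in RTT_PTGS12KO. NTT was 2.81-fold over RTT (2.31 to 3.40) and the knockout 3.03-fold over its control (2.77 to 3.31). The monocyte markers in these macrophages followed the same order, at 4347, 450, 354 and 1484 CPM summed, and their part was not tested. The NTT ratio was 1.94 without chip load 2 and 1.90 with each cell's own CPM averaged, both inside 2-fold, and the 3 loads of NTT gave 17.6 to 56.0 CPM. At equal makeup the ratios were 2.42 for NTT and 2.50 for the knockout in macrophages, and 5.66 for the knockout in monocytes.

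The direction was shared by single clusters. The knockout was past 2-fold over its control in 6 of 6 monocyte and macrophage types, with ratios from 2.16 in TAM_Spp1 to 12.0 in Infl_Mono. In Ctsk_Macro it rested on 13 against 12 UMIs, and without the top cell of each sample the levels were 1.31 and 0.934 CPM, inside 2-fold. In Infl_Mono the control held 9 UMIs, 5 of them in 1 cell. NTT was past 2-fold over RTT in 4 of 5, the exception being TAM_Spp1 at 1.09, where 20 NTT cells held 6 UMIs. The 16.4-fold ratio in TAM_H2Ab1 rested on 1 UMI in RTT and had an interval of 2.77 to 664. Neutrophils differed likewise, with 199 CPM in NTT against 61.8 in RTT, then 31.5 in RTT_ROSA26 and 258 in the knockout, that is 3.21-fold and 8.19-fold. cDC2s gave ratios of 2.25 and 2.03, on 21 UMIs in RTT and 17 in RTT_ROSA26, of which 11 and 10 lay in 1 cell. In both types the summed monocyte markers went the same way, and their part was not tested. They stood at 7180, 2192, 1480 and 4653 CPM in neutrophils and at 8472, 2303, 1368 and 5081 in cDC2s. Inhba did not differ this way in Myofibrobl cells, at 136 CPM in RTT_ROSA26 and 129 in RTT_PTGS12KO, a ratio of 0.949 (0.782 to 1.15).

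The share of monocytes with the gene followed the same order. After thinning, 27.2% of NTT monocytes (26.1 to 28.3), 10.6% of RTT (8.02 to 13.5), 5.80% of RTT_ROSA26 (2.54 to 11.1) and 18.2% of RTT_PTGS12KO (17.0 to 19.5) held an Inhba UMI, with exact binomial intervals. Unthinned shares were 35.7, 13.6, 7.64 and 27.1%. cDC1s gave 0 of 32 cells in NTT, with an exact interval reaching 10.9%, and 2.70% in RTT_PTGS12KO.

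**Figure D3:**
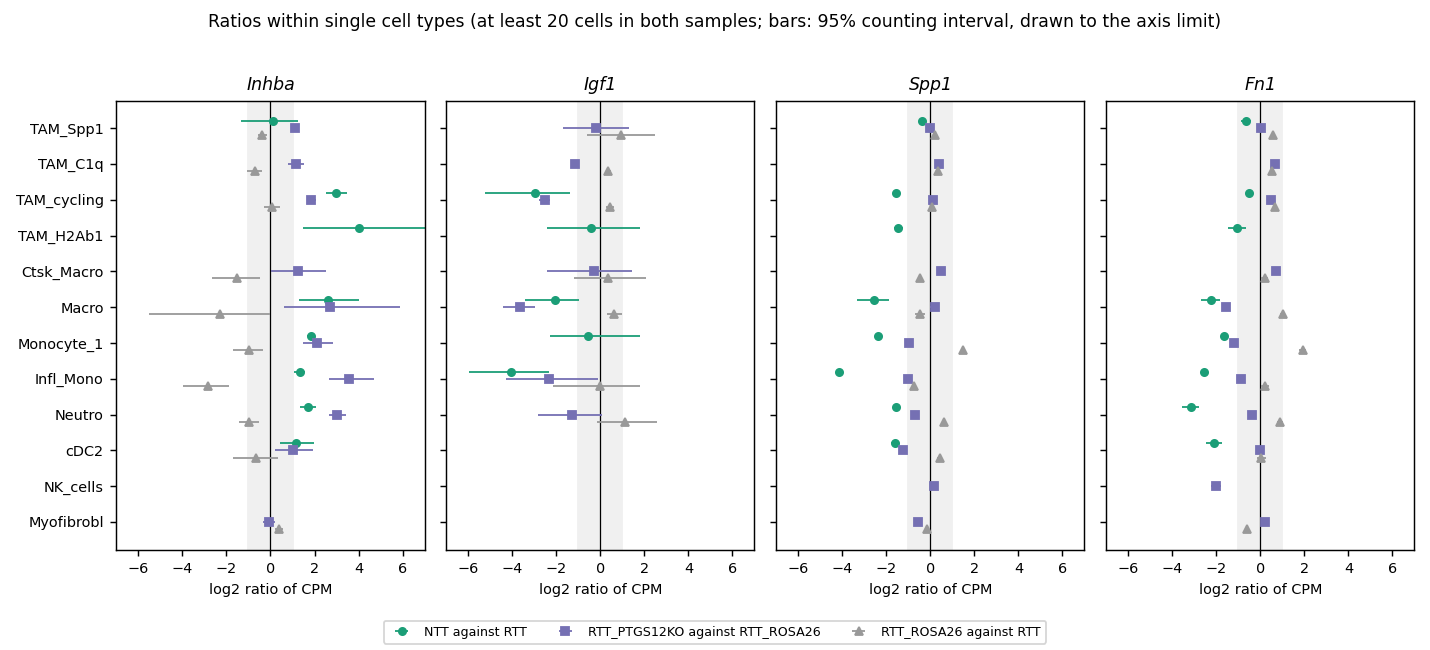
Ratios (log2 axis, with 95% counting intervals) of Inhba, Igf1, Spp1 and Fn1 inside single cell types with at least 20 cells in both samples, with the range inside 2-fold in grey. Over the 6 monocyte and macrophage types compared, the Inhba points of RTT_PTGS12KO over RTT_ROSA26 lie at ratios of 2.16 to 12.0, and over 5 such types the Spp1 points of NTT over RTT lie at 0.0560 to 0.762.

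The first comparison set tumours naive to targeted therapy against resistant ones. In all cells, Inhba was past 2-fold higher in NTT (11.6-fold, 11.1 to 12.0) and 6 of the 9 were past 2-fold lower, beside 10.0% of 15922 genes higher and 17.3% lower. The lower ones were Igf1 (15.4-fold), Spp1 (10.9-fold), Fn1 (9.37-fold), Areg (5.73-fold), Pdgfb (2.96-fold) and Thbs1 (2.15-fold). The median log2 ratio was -1.56 over the 9 and -0.19 over all genes. In macrophages 1 was higher and 5 were lower, beside 5.47% and 4.66% of 14280 genes, with medians of -1.27 and -0.06. Monocytes gave 2 higher, Inhba and Hbegf, and 5 lower, beside 2.73% and 3.89% of 12808 genes, with medians of -1.43 and 0.02. Counting genes with no UMI in 1 sample at 3 UMIs, the medians over all genes were 0.04 in macrophages and -0.00 in monocytes. At equal cell type makeup Inhba (3.06-fold) and Igf1 (ratio 0.192) were still past 2-fold in all cells, while Spp1 (0.559), Thbs1 (0.617), Fn1 (0.523), Areg (0.675) and Pdgfb (0.645) were not. Within monocytes at equal makeup Spp1 (ratio 0.125), Fn1 (0.256), Areg (0.321) and Pdgfb (0.363) were still past 2-fold lower in NTT. For Areg 21 of the 45 UMIs of RTT monocytes lay in 1 cell, without which they held 4.90 CPM, and the ratio was 0.777 without chip load 2.

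The second set the knockout of both cyclooxygenase genes in cancer cells against the control guide. In all cells Inhba was past 2-fold higher (7.49-fold, 7.05 to 7.98) and Igf1 lower (5.19-fold), beside 6.26% of 16172 genes higher and 6.99% lower. With the Myofibrobl cluster left out, Areg was past 2-fold higher as well (2.11-fold). In macrophages Inhba and Areg were higher and Igf1 lower, beside 4.01% and 4.12% of 15226 genes, and the median log2 ratio was -0.16 over the 9 and -0.11 over all genes. Monocytes had Inhba higher and Thbs1, Areg and Igf1 lower, beside 1.61% and 2.77% of 12505 genes. There the medians were -0.64 and 0.05, or -0.11 over all genes with zeros at 3 UMIs, and 4 Igf1 UMIs in the control stood behind a ratio of 0.126 (0.0426 to 0.506). Of these monocyte calls, Areg turned to higher in the knockout without the top cells, at 10.5 CPM against 7.09, and Thbs1 was at 0.531 at equal makeup. Spp1 (1.14), Fn1 (1.36), Thbs1 (0.758), Vegfa (0.854), Pdgfb (0.895) and Hbegf (0.755) were inside 2-fold in macrophages.

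RTT_ROSA26 against RTT set side by side the resistant tumours that keep the cyclooxygenases. It shares RTT with the first comparison and RTT_ROSA26 with the second. In macrophages none of the 9 was past 2-fold, with ratios from 0.613 for Areg to 1.46 for Pdgfb, beside 2.47% of 15320 genes higher and 2.31% lower. In all cells Inhba was past 2-fold lower (2.15-fold), beside 2.07% of 16123 genes higher and 5.85% lower. Monocytes gave Fn1 (2.31-fold) and Areg (5.33-fold, on the cell described) higher and Inhba lower, beside 2.22% and 2.24% of 9956 genes. RTT_ROSA26 was the lower of the pair for Areg and Inhba in macrophages, so the knockout levels stood nearer to those of RTT, with 20.4 against 10.6 CPM for Inhba and 31.4 against 20.2 for Areg. This pair gives no measure of the spread between tumours.

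**Figure D4:**
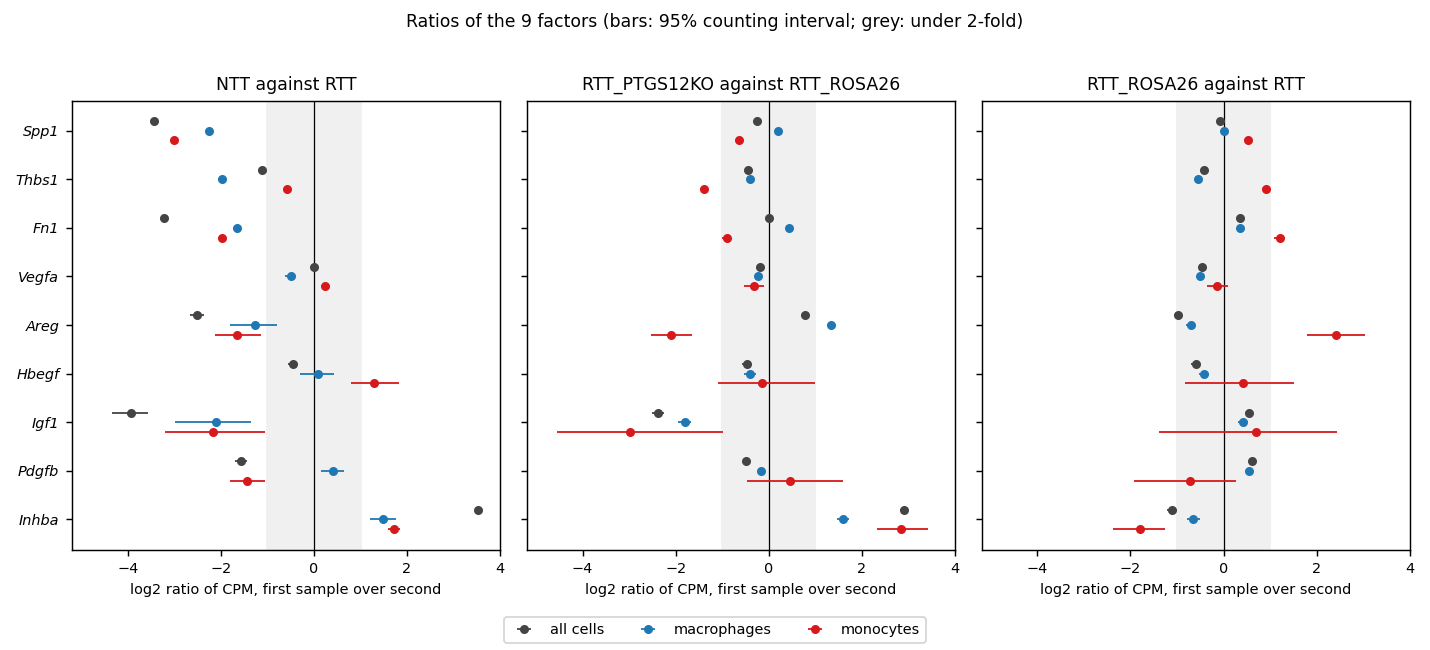
CPM ratios (log2 axis) of the 9 factors with 95% counting intervals in all cells, macrophages and monocytes for the 3 comparisons, with the range inside 2-fold in grey. In macrophages NTT over RTT is 2.81 for Inhba and 0.231 for Igf1, and RTT_PTGS12KO over RTT_ROSA26 is 3.03 and 0.286.

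The cells that supplied each factor shifted between tumours. Monocytes held 96.5% of the Inhba UMIs in NTT against 19.2% in RTT, and 77.5% in RTT_PTGS12KO against 2.59% in RTT_ROSA26, while holding 74.4, 4.20, 28.4 and 0.909% of all UMIs in that order. In every sample their share of Inhba exceeded their share of RNA. Myofibrobl cells made up 3.12% of RTT cells and held 41.8% of its Areg, 33.8% of its Hbegf, 35.3% of its Inhba and 15.9% of its Spp1 UMIs, on 7.51% of all UMIs. In RTT_ROSA26 they held 432 of 1801 Areg and 327 of 1120 Inhba UMIs. In RTT_PTGS12KO they held 193 of 4091 and 162 of 11181. This cluster had little Ptprc, the CD45 gene, at 15.9 to 31.0 CPM in the samples with at least 20 of its cells and 106 CPM in the 6 cells of NTT, against 330 to 727 in all cells. Its summed fibroblast markers stood at 733 to 1202 CPM, and its melanoma markers summed to 4.15 to 7.15 CPM with Mlana, Tyr, Dct and Tyrp1 at 0. Of its 10 leading genes 1 was a listed fibroblast marker, and whether the cluster held cancer cells was not tested. Dendritic cells held 38.0% of Areg in NTT, 148 of 390 UMIs, of which 77 lay in 1 DC3 cell.

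**Figure D5:**
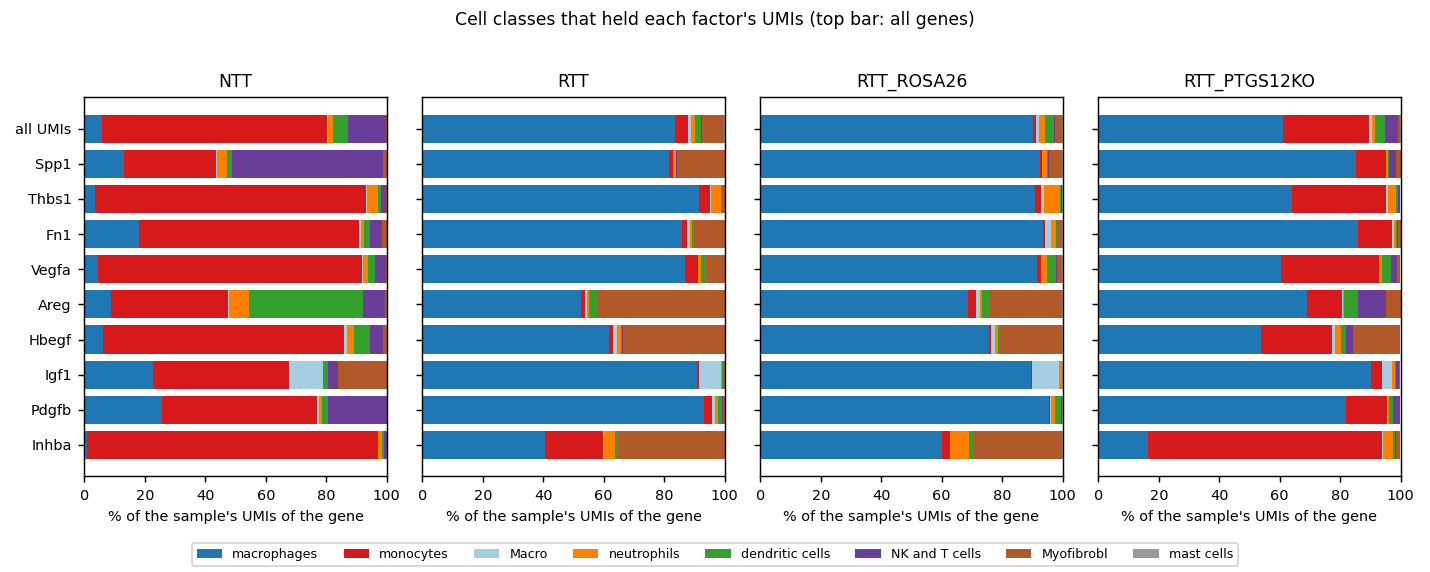
Share (percent, bars from 0) of each factor's UMIs held by each class of cells in the 4 samples, below a bar for the UMIs of all genes. NK and T cells hold 49.9% of Spp1 in NTT, macrophages 81.7% in RTT, and monocytes 96.5% of Inhba in NTT and 77.5% in RTT_PTGS12KO.

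How far the same cells made the factors was described by rank correlation, which sparse counts lower on their own. Across cells of 1 type and 1 sample, on thinned counts, the median Spearman rho of 14 such groups was 0.33 for Spp1 with Fn1 (0.06 to 0.61), 0.28 for Thbs1 with Vegfa (0.13 to 0.42), 0.19 for Thbs1 with Fn1 (0.03 to 0.31) and 0.11 for Spp1 with Thbs1 (-0.12 to 0.30). These are descriptions of sparse counts within shared libraries. In RTT macrophages the 10% of thinned cells with the most Spp1 held 44.7% of it, and for Fn1 38.7%.

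Across 42 groups of cell type and sample with at least 50 cells, which share libraries and loads, the Pearson r of log2(CPM + 1) ordered 5122 genes by likeness to each factor. Among the 9 themselves r was 0.69 for Spp1 with Fn1, 0.57 for Thbs1 with Fn1, 0.56 for Thbs1 with Vegfa, 0.52 for Vegfa with Inhba and -0.59 for Pdgfb with Inhba. Spp1 was most like Nt5e (0.83), Itga6 (0.79) and Tmem119 (0.79), and Fn1 most like Pdpn (0.81), Lrp1 (0.80) and Adam15 (0.78). Thbs1 followed Clec4d (0.93), Cebpb (0.88) and Cpeb2 (0.87), and Vegfa followed Pcnx (0.82), the glucose transporter gene Slc2a1 (0.77) and Bnip3 (0.75). Igf1 went with Cbr2 (0.95), Gas6 (0.93) and Pmp22 (0.90), and Inhba with Tax1bp1 (0.83), Upp1 (0.78) and Ero1l (0.75). Hbegf went with Ehd2 (0.75), Ptges (0.74), which encodes a prostaglandin E synthase, and Neat1 (0.74). Pdgfb stood nearest Tgfbr2 (0.82), Tmem141 (0.82) and Ctsa (0.79), and Areg, with the weakest matches, nearest Adgrg6 (0.66), Scd1 (0.65) and Flrt3 (0.61).

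Other ligands of the same families were mostly inside 2-fold in macrophages. Of 18 listed, 12 had enough UMIs in NTT against RTT, with 0 past 2-fold higher and 2 lower beside 5.47% and 4.66% of all genes, and 13 in RTT_PTGS12KO against RTT_ROSA26, with 1 higher and 1 lower beside 4.01% and 4.12%. Pdgfa, the A chain of PDGF, stood at 14.5 CPM in NTT and 37.8 in RTT, and 63.4 in RTT_ROSA26 against 38.0 in RTT_PTGS12KO, past 2-fold lower in NTT (log2 ratio -1.38). Tgfb1, whose product many leukocytes secrete in latent form, held 34.9, 41.5, 39.6 and 31.2 CPM, inside 2-fold throughout the macrophages. The median log2 ratio of the ligands was -0.49 for NTT against RTT, or -0.28 with zeros at 3 UMIs, and -0.41 for the knockout against its control.

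Of 25 receptors, 22 were counted for NTT against RTT, with 3 higher and 3 lower past 2-fold (all genes 5.47% and 4.66%), and 23 for the knockout, with 3 higher and 1 lower (all genes 4.01% and 4.12%). Those with the most UMIs, Cd47, Itgb1 and Cd44, which bind thrombospondin, fibronectin and osteopontin respectively, were inside 2-fold. Cd47 stood at 354 CPM in NTT against 323 in RTT, then 263 in RTT_ROSA26 and 273 in the knockout, and Cd44 at 187, 226, 228 and 251. Median log2 ratios were -0.21 (-0.03 with zeros at 3 UMIs) and -0.28.

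Of 10 inhibitors and sheddases, 9 were counted in each comparison, with 0 higher and 2 lower in NTT (all genes 5.47% and 4.66%) and 2 higher and 0 lower in the knockout (all genes 4.01% and 4.12%). Adam17 and Adam10, which cut EGF receptor ligands free, lay at 73.0 to 92.8 CPM and 79.5 to 110 CPM over the 4 samples. Igfbp4, a binder of IGF proteins, stood at 27.6 CPM in NTT and 93.4 in RTT, and 127 in RTT_ROSA26 against 70.1 in RTT_PTGS12KO, past 2-fold lower in NTT (log2 ratio -1.76). The list's median log2 ratio was -1.14 in NTT against RTT but 0.20 with its 3 genes at zero in 1 sample set to 3 UMIs, and 0.15 in the knockout.

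Of 13 other matrix genes, 11 were counted for NTT against RTT, with 0 higher and 2 lower (all genes 5.47% and 4.66%), and 12 for the knockout, with 0 past 2-fold in either direction (all genes 4.01% and 4.12%). Tgfbi, a secreted integrin ligand, held 986 CPM in NTT against 952 in RTT, then 837 in RTT_ROSA26 and 1075 in the knockout. Ecm1 stood at 178, 494, 281 and 208 CPM, past 2-fold lower in NTT (log2 ratio -1.47) and inside 2-fold in the knockout (-0.44). The median log2 ratios were -0.48 and 0.12.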

How the data were processed

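Tumours were digested and live CD45+ cells sorted. Each of the 4 samples got its own multiplexing tag, and the mixture went through 3 chip loads for 3' single-cell RNA-seq. The authors deposited 1 matrix of UMI counts, made with Cell Ranger and the mm10 reference and filtered to cells with over 1000 genes and under 15% mitochondrial UMIs, together with a table that assigns every cell to a sample and, from Seurat 4.3.0, to a cell type. These raw counts were used here. All columns belonged to the 4 samples.

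UMIs were summed per sample and cell class and divided by the class total to give CPM. Ratios carry exact conditional (Clopper-Pearson) intervals, levels exact Poisson and shares exact binomial ones, all at 95%. Ratios at equal makeup or averaged over each cell's own CPM carry none. Ratios were computed over all genes and the background percentages printed beside the counts. Python 3.11.15, numpy 2.4.6, scipy 1.17.1, pandas 2.3.3 and matplotlib 3.10.9 were used, and R 4.3.3 with edgeR 4.0.16 for TMM factors in an alternative. The ratio script was tested on simulated data. No doublet caller was run, and leaving out the 5% of cells with the most UMIs was an alternative. Shares were compared after thinning to 3000 UMIs, which left out 2 to 38 macrophages and 6 to 162 monocytes a sample. The 9 genes, the gene lists and the thresholds were chosen with earlier results of these data known. Named are all 9 genes, up to 10 genes of the pathway lists with the highest macrophage level per role, and the 3 genes most like each factor. Ratios against NTT rest on 4064197 macrophage UMIs, and the RTT_ROSA26 monocytes on 1002126. Loci come from GENCODE vM21 and promoter windows from RefSeq.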

Additional observations from a re-analysis of the deposited data

Results flagged for a closer look

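Areg moved in opposite directions in the macrophages and the monocytes of RTT_PTGS12KO against RTT_ROSA26. Its log2 ratio was 1.34 in macrophages and -2.10 in monocytes, a difference of 3.44 that was not tested, since each group is 1 sample. In RTT_ROSA26 monocytes 42 of the 49 Areg UMIs lay in 1 cell, and without the top cell of each sample the monocyte log2 ratio was 0.57. The NK cells of RTT_PTGS12KO likewise held 364 of 378 Areg UMIs in 1 cell, 71.6 CPM with it and 2.66 without it.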

How the results depend on the processing

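No paired analysis was possible because there is 1 sample in each group. The alternatives gave 114 counts of factors past 2-fold, of which 101 were within 1.5 times the reported count. In all cells the 7 factors past 2-fold in NTT against RTT became 2 at equal makeup. In all cells the 1 factor in RTT_ROSA26 against RTT became 2 with TMM factors, with only cells of over 1500 genes and under 10% mitochondrial UMIs, without the 5% of cells with the most UMIs, without chip load 2 and without each factor's top cell, and 0 with CPM + 10 and at equal makeup. In macrophages the 6 of NTT against RTT became 3 with CPM + 10 and 2 at equal makeup, and the 3 of RTT_PTGS12KO against RTT_ROSA26 became 0 with CPM + 10, which shrinks low genes by construction. In monocytes the 7 of NTT against RTT became 3 with CPM + 10, and the 4 of RTT_PTGS12KO against RTT_ROSA26 became 2 without each top cell. Of 1026 values of single factors 3 reversed, all Areg in monocytes: the log2 ratio of RTT_PTGS12KO to RTT_ROSA26 was 0.42 without chip load 3 and 0.57 without the top cells, and that of RTT_ROSA26 to RTT was -0.12 without chip load 3. Without chip load 2, NTT over RTT was no longer past 2-fold for Areg in macrophages (0.585) and monocytes (0.777), Inhba in macrophages (1.94) and Hbegf in monocytes (1.97). Of 33 calls, 33 held with CPM + 1, with the stricter cells and without the 5%, 32 with TMM, which lost Thbs1 in all cells, 31 with each cell's own CPM averaged, which lost Inhba in NTT against RTT and Areg in the knockout, both in macrophages, 30 without each top cell, 29 to 32 without 1 chip load, 21 at equal makeup and 20 with CPM + 10. Leaving out the Myofibrobl cluster and leaving out each top cell were chosen after seeing the data. Except for those named, the cause of each shift was not tested. The 144 RTT_ROSA26 monocytes and 308 NTT macrophages limit the depth.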
